A study of Danio rerio with 25 samples.

Results

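Integrins, laminins and the proteins that join them to the cytoskeleton hold muscle fibers, skin and blood cells to the matrix around them. They were examined here in zebrafish *dmd* mutants and WT siblings with and without endurance neuromuscular electrical stimulation (eNMES). Members were chosen by symbol: genes named as integrin alpha or beta subunits, laminin alpha, beta or gamma chains, nidogens, perlecan (*HSPG2*), talins, vinculin, paxillin, integrin linked kinase (*ILK*), parvins or kindlins (*FERMT*), with at least 10 counts summed over the libraries. The rule gave 71 of the 25832 genes tested. All 71 genes whose symbols matched reached the minimum of 10 counts.

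The libraries came from whole larvae at 7 days post fertilization (dpf), with 2 larvae in each and polyA RNA sequenced. Embryos came from spawns of *sapje ta222a* fish, which carry a mutation in *dmd*, the gene for dystrophin. The 4 groups were *dmd* mutants that underwent eNMES (9 libraries), untreated *dmd* mutants (8 libraries), WT siblings that underwent eNMES (3 libraries) and untreated WT siblings (4 libraries). Treated larvae had 3 sessions of eNMES, at 2, 3 and 4 dpf, and all larvae were fed from 5 dpf. Larvae were sorted before extraction by their severity and by how their muscle birefringence changed, so the *dmd* libraries can hold larvae of different severity. The mutation is present in all cells, and WT siblings can include heterozygous carriers. The *dmd* gene (ENSDARG00000008487) had 1008 to 1435 normalized counts in *dmd* eNMES libraries and 1055 to 1324 in *dmd* control libraries, against 3511 to 4599 in WT eNMES libraries and 2588 to 5395 in WT control libraries, so every *dmd* library was below every WT library. Library totals lay between 7957160 and 22808348 counts. A normalized count is a count scaled to the mean library size, and a TPM is scaled for gene length as well as depth. Since whole larvae were sequenced, fewer cells of a type and less RNA per cell cannot be told apart.

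An integrin is a pair of 1 alpha and 1 beta subunit that spans the membrane. Outside the cell it binds matrix proteins such as laminins, which are built from 1 alpha, 1 beta and 1 gamma chain and are linked to the rest of the basement membrane by nidogens and perlecan. Inside the cell, talin and kindlin bind the beta subunit and switch the integrin on, and vinculin, paxillin, parvin and *ILK* connect it to actin. In muscle this system stands beside the dystrophin complex, and both bind the laminin that holds the *lama2* chain. In skin, integrin alpha 6 beta 4 forms hemidesmosomes, and in leukocytes the beta 2 integrins carry cells into damaged tissue.

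Members were grouped by a site that their subunit is known from, which need not be its only site. Laminin chains of muscle made up 4 members, other laminins, nidogens and perlecan of basement membranes 12, epidermal subunits 11, subunits and adaptors of leukocytes and thrombocytes 13, other integrins 17 and adaptors 12. The last 2, *ITGB1BP1* and *itgb3bp*, are named as binding partners of a beta subunit and are not subunits. Members together made up 0.213% to 0.264% of the counts in a library. On the TPM scale 29 members had a mean of at least 10 and 5 had a mean under 1.

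The highest levels, as mean TPM over all libraries, belonged to *NID1* (ENSDARG00000068710), a nidogen, at 50.8 TPM and *ITGAV*, the alpha V subunit that binds fibronectin and vitronectin, at 44.7 TPM. Paxillin *PXN* (ENSDARG00000088590), a scaffold of focal adhesions, had 38.1 TPM and the hemidesmosome subunit *itga6b* had 31.5 TPM. The laminin alpha 2 chain *lama2* led the muscle chains at 21.8 TPM. *ITGB1BP1* had 11.1 TPM and *ITGB3* (ENSDARG00000056767), the beta 3 subunit, led the leukocyte and thrombocyte members at 9.80 TPM. By group of members, the median level was 15.96 TPM for muscle chains, 12.9 for basement membrane members, 12.2 for adaptors, 5.90 for epidermal members, 4.19 for other integrins and 2.04 for leukocyte and thrombocyte members. The leukocyte and thrombocyte members were thus the lowest of the 6 groups in level.

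*dmd* mutants had higher levels of leukocyte integrins, of several laminin chains and of nidogens than WT siblings, in the untreated and in the eNMES groups. Between the control groups, 7 of the 71 members were called, all higher in *dmd* mutants (9.86%, against 3.12% of all genes tested, or 2.43% counting higher genes alone). Calls needed an adjusted p under 0.1 together with a log2 fold change beyond 0.6 either way, which is a fold of 1.52. At any fold change, 24 members had an adjusted p under 0.1, all of them higher (33.8%, against 10.9% of all genes tested, or 6.56% counting higher genes alone). Values of 16 members lay higher in every *dmd* control library than in any WT control library and 0 lay lower, while 3.05% of all genes lay higher and 1.93% lower. The median log2 fold change was 0.16 over the members and 0.01 over all genes.

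Between the eNMES groups, which share no library with the control groups, 11 members were called, 10 higher and 1 lower in *dmd* mutants (15.5%, against 3.94% of all genes, which divides into 3% called higher and 0.941% called lower). An adjusted p under 0.1 was found for 26 members, 24 higher and 2 lower (36.6%, against 12.3% of all genes, which divides into 6.74% higher and 5.57% lower). Groups did not overlap for 16 members that were higher and 2 that were lower, against 4.38% and 4.15% of all genes. The median log2 fold change was 0.22 over the members and 0.00 over all genes. With only 3 WT eNMES libraries the number depended on which were used. Leaving out WT eNMES replicate 1 gave 9 called members, leaving out replicate 2 gave 3 and leaving out replicate 3 gave 2.

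The direction was the same in both genotype comparisons for 56 of the 71 members (78.9%), against 58.6% of all genes tested. Of these 56 members, 47 were higher and 9 lower in *dmd* mutants. In both comparisons 15 members had an adjusted p under 0.1 in the same direction, all of them higher. Of the 25832 genes tested, 853 did so, in either direction, and 240 were called in both. The 15 members were 6 basement membrane members, 5 leukocyte members, 3 muscle laminin chains and 1 adaptor. Called in both were *itgb2*, *itgam.1*, *itgam.2*, *FERMT3* (ENSDARG00000079267) and *parvg*, all of them members of the leukocyte and thrombocyte group.

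**Figure D1:**
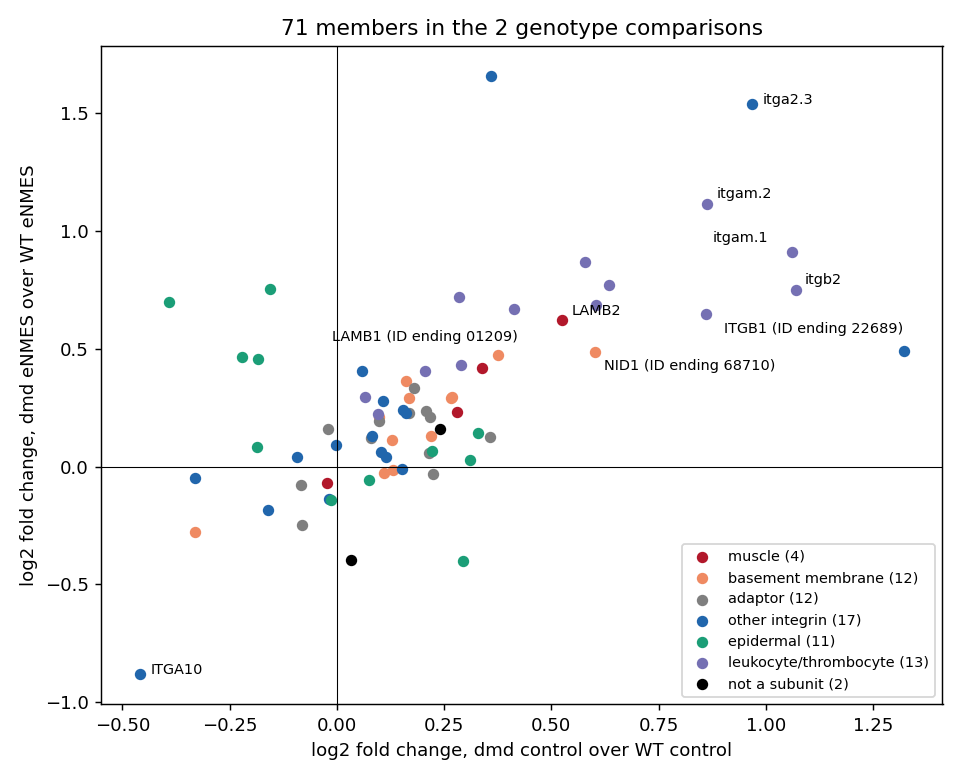
Each point is 1 of the 71 members, with its log2 fold change of *dmd* control over WT control on the x axis and of *dmd* eNMES over WT eNMES on the y axis, colored by group of members. All 13 leukocyte and thrombocyte members lie to the upper right, above 0 on both axes, and *ITGA10* lies lowest on both axes.

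Leukocyte integrins were the members called most often. All 13 leukocyte and thrombocyte members were higher in *dmd* mutants in both genotype comparisons, with a median log2 fold change of 0.58 between the control groups and 0.69 between the eNMES groups. The test called 5 of them between the control groups and 8 between the eNMES groups, against 2.43% and 3% of all genes called higher. The summed level of the 13 members was 40.2 ± 4.86 TPM (SD, n = 9) in *dmd* eNMES libraries and 36.5 ± 3.41 (n = 8) in *dmd* control libraries, against 28.9 ± 3.65 (n = 3) in WT eNMES libraries and 27.9 ± 1.90 (n = 4) in WT control libraries.

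The state of the circadian clock genes also differed between the groups compared. A clock score was taken as the first principal component of 31 clock genes, signed so that *PER2* was positive. It was positive in 4 of 9 *dmd* eNMES and 3 of 8 *dmd* control libraries, against 0 of 3 WT eNMES and 4 of 4 WT control libraries. With the score as a covariate, an alternative chosen after seeing the data, 1 of the 8 leukocyte and thrombocyte members called between the eNMES groups was still called, *itgam.2*, at a log2 fold change of 0.95 (edgeR adjusted p = 0.0934). The other 7 had log2 fold changes of 0.26 to 0.73 there (edgeR adjusted p = 0.148 to 0.598), among them *itgb2* at 0.44 (edgeR adjusted p = 0.205). With the *dmd* libraries of negative score alone, 5 of the 8 were still called, and *itgb7*, *itgae.2* and *FERMT3* (ENSDARG00000079267) were not (edgeR adjusted p = 0.11 to 0.216). Those *dmd* eNMES libraries had scores of -2.34 to -0.57, all above the -3.58 to -2.72 of the WT eNMES libraries. Equal sign thus did not match the groups in score. All 5 calls of the control groups held with the score as a covariate, and 4 held with the *dmd* libraries of negative score alone. With the *dmd* libraries of positive score alone, the sign of all WT control libraries, all 5 held (edgeR adjusted p = 0.0547 at most). All 8 calls of the eNMES groups held there too, but those *dmd* libraries differ in sign from the WT eNMES libraries.

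The beta 2 subunit *itgb2* (ENSDARG00000016939) pairs with several alpha subunits on neutrophils and macrophages and lets them adhere to vessel walls and matrix. It had 133 to 303 normalized counts (median 249.8) in *dmd* control libraries, against 121.5, 115, 111 and 118 in WT control libraries. Every *dmd* control library was above every WT control library, although 1 of them, replicate 1 at 133, was close to them. The log2 fold change was 1.07 (SE, its standard error, 0.176, edgeR adjusted p = 0.000561; exact permutation test, p = 0.00202, the least that 8 against 4 libraries can give). With eNMES, *itgb2* had 199.6 to 334 normalized counts (median 266) in *dmd* mutants, against 208, 142 and 144 in WT siblings. WT eNMES replicate 1, at 208, lay within the range of the *dmd* mutants, and the log2 fold change was 0.75 (SE 0.187, edgeR adjusted p = 0.015). Without WT eNMES replicate 2 the adjusted p was 0.103, and without replicate 3 it was 0.113.

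The genes *itgam.1* and *itgam.2* carry the name of the alpha M subunit, a partner of beta 2. *itgam.1* (ENSDARG00000002956) had 41.6 to 60.9 normalized counts (median 52.7) in *dmd* control libraries, against 13.7, 27.0, 19.4 and 39.1 in WT control libraries. The groups did not overlap and the log2 fold change was 1.06 (SE 0.231, edgeR adjusted p = 0.00642). Under eNMES *itgam.1* had 36.8 to 79.6 normalized counts (median 64.3) in *dmd* mutants, against 45.4, 23.1 and 29.7 in WT siblings, so that WT eNMES replicate 1 again overlapped the *dmd* mutants. The log2 fold change was 0.91 (SE 0.245, edgeR adjusted p = 0.022, but 0.158 without WT eNMES replicate 2 and 0.127 without replicate 3). Taking the replicate number as a block gave 0.85 (edgeR adjusted p = 0.113). *itgam.2* (ENSDARG00000096587) had 31.6 to 68.7 normalized counts (median 50.5) in *dmd* control libraries, against 27.4, 20.8, 32.7 and 30.2 in WT control libraries, with a log2 fold change of 0.86 (SE 0.249, edgeR adjusted p = 0.0368). The groups overlapped in 1 library on each side, and without WT control replicate 2 the adjusted p was 0.123. Between the eNMES groups, *itgam.2* had 36.8 to 87.3 normalized counts (median 48.1) in *dmd* mutants, against 37.8, 16.1 and 20.1 in WT siblings, and the log2 fold change was 1.12 (SE 0.280, edgeR adjusted p = 0.0148, and 0.12 without WT eNMES replicate 2 and 0.111 without replicate 3).

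Kindlin 3 and parvin gamma are the blood cell forms of 2 adaptor families, and they were higher alongside these integrins. *FERMT3* (ENSDARG00000079267) had 33.7 to 49.3 normalized counts (median 42.9) in *dmd* control libraries, against 26.5, 22.8, 23.5 and 19.5 in WT control libraries. No libraries of the groups overlapped, and the log2 fold change was 0.86 (SE 0.163, edgeR adjusted p = 0.00212). Under eNMES it had 36.0 to 64.4 normalized counts (median 53.3) in *dmd* mutants, against 32.2, 30.1 and 37.3 in WT siblings (log2 fold change 0.65, SE 0.170, edgeR adjusted p = 0.0191, and 0.11 without WT eNMES replicate 2). That call was lost with the replicate number as a block, at a log2 fold change of 0.39 (edgeR adjusted p = 0.613). The second ID with this symbol, ENSDARG00000030938, had 35.8 to 68.5 normalized counts (median 54.8) in *dmd* eNMES libraries, against 35.0, 26.1 and 24.9 in WT eNMES libraries. Its groups did not overlap, the log2 fold change was 0.87 (SE 0.239, edgeR adjusted p = 0.0246), and the adjusted p was 0.117 without WT eNMES replicate 2 and 0.145 without replicate 3. This ID had a log2 fold change of 0.64 with the replicate number as a block (edgeR adjusted p = 0.322). Between the control groups it missed the threshold narrowly, at a log2 fold change of 0.58 (SE 0.212, edgeR adjusted p = 0.102).

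*parvg* (ENSDARG00000067711) had 33.4 to 68.4 normalized counts (median 47.7) in *dmd* control libraries, against 31.1, 31.1, 34.7 and 32.0 in WT control libraries. The lowest *dmd* control library lay within the WT control range, the log2 fold change was 0.60 (SE 0.171, edgeR adjusted p = 0.0343), and the call lay at the fold threshold. Its log2 fold change was 0.52 to 0.60 and no longer above 0.6 without WT control replicate 1 or 2, *dmd* control replicate 6 or 8, WT eNMES replicate 1 or *dmd* eNMES replicate 5, with adjusted p of 0.04 to 0.0991. It was also under 0.6 by DESeq2, with its size factors in edgeR and with the 2 groups alone. The value was 0.44 (edgeR adjusted p = 0.0796) with the *dmd* libraries of negative clock score alone. With the replicate number as a block *parvg* had 0.40 (edgeR adjusted p = 0.236). With eNMES it had 40.9 to 71.1 normalized counts (median 56.2) in *dmd* mutants, against 35.0, 34.1 and 33.5 in WT siblings, with no overlap. Here the log2 fold change was 0.69 (SE 0.187, edgeR adjusted p = 0.0239, and 0.113 without WT eNMES replicate 3). Using the replicate number as a block took it to 0.36 (edgeR adjusted p = 0.636), and the gene was not called.

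Integrins of lymphocytes were called between the eNMES groups and not between the control groups, and the test of that difference did not pass for either gene (edgeR adjusted p = 0.755 for *itgb7* and 0.574 for *itgae.2*). *itgb7* (ENSDARG00000044318), a beta subunit of lymphocytes, had 69.8 to 119 normalized counts (median 81.8) in *dmd* eNMES libraries, against 81.3, 47.2 and 36.4 in WT eNMES libraries (log2 fold change 0.67, SE 0.219, edgeR adjusted p = 0.0603). *itgae.2* (ENSDARG00000057787), named for the alpha E subunit that pairs with beta 7, had 44.6 to 114 normalized counts (median 88.1) in *dmd* eNMES libraries, against 71.9, 45.2 and 39.2 in WT eNMES libraries (log2 fold change 0.72, SE 0.233, edgeR adjusted p = 0.0568). For both genes WT eNMES replicate 1 was the highest of the WT eNMES libraries and overlapped the *dmd* mutants. Without WT eNMES replicate 2 the adjusted p was 0.233 for *itgb7* and 0.217 for *itgae.2*, and without replicate 3 it was 0.358 for *itgb7* and 0.300 for *itgae.2*. For *itgae.2* the log2 fold change was 0.42 with the replicate number as a block (edgeR adjusted p = 0.497). *ITGB3* (ENSDARG00000056767), the beta 3 subunit of thrombocytes and of several other cells, did not pass either test, at log2 fold changes of 0.07 between the control groups and 0.30 between the eNMES groups (edgeR adjusted p = 0.803 and 0.187).

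A list of leukocyte marker genes was set beside these members. It asked for 13 genes and matched 19 gene IDs, since *MFAP4* and *MPEG1* each stand for more than 1 ID. No tested ID was matched for *mpx*, which the list also asked for, and several of the 19 are *MFAP4* copies. Of these 19, 9 had an adjusted p under 0.1 between the control groups and 6 between the eNMES groups. All of them were higher in *dmd* mutants, against 6.56% and 6.74% of all genes higher. Negative log2 fold changes stood against these for 6 of the 19 between the control groups and 2 between the eNMES groups, with 0 of them at an adjusted p under 0.1. The lowest of the control comparison was -1.398 for *MFAP4* (ENSDARG00000090557, edgeR adjusted p = 0.248), followed by -0.56 for *NCF1*, a subunit of the phagocyte oxidase (edgeR adjusted p = 0.351). *CORO1A*, an actin regulator of blood cells, had log2 fold changes of 0.63 between the control groups and 0.54 between the eNMES groups (edgeR adjusted p = 0.00406 and 0.0189). *SPI1*, the transcription factor that specifies myeloid cells, had 0.80 and 0.56 (edgeR adjusted p = 0.00167 and 0.0289). The summed level of the list overlapped between groups: 222 to 332.2 TPM in *dmd* eNMES libraries and 218 to 316 in *dmd* control libraries, against 204 to 289 in WT eNMES libraries and 210.1 to 279 in WT control libraries. None of the 19 genes was at 0 in all libraries. The part of these cells in the values of the leukocyte integrins was not tested. Of 6 thrombocyte markers, 0 passed in either genotype comparison (1 had an unadjusted p under 0.05 in each, against 21.8% of all genes between the control groups and 22.9% between the eNMES groups), and their summed level was 71.7 to 99.4 TPM in *dmd* eNMES libraries and 65.7 to 94.6 in *dmd* control libraries, against 67.1 to 81.6 in WT eNMES libraries and 93.0 to 102.7 in WT control libraries.

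**Figure D2:**
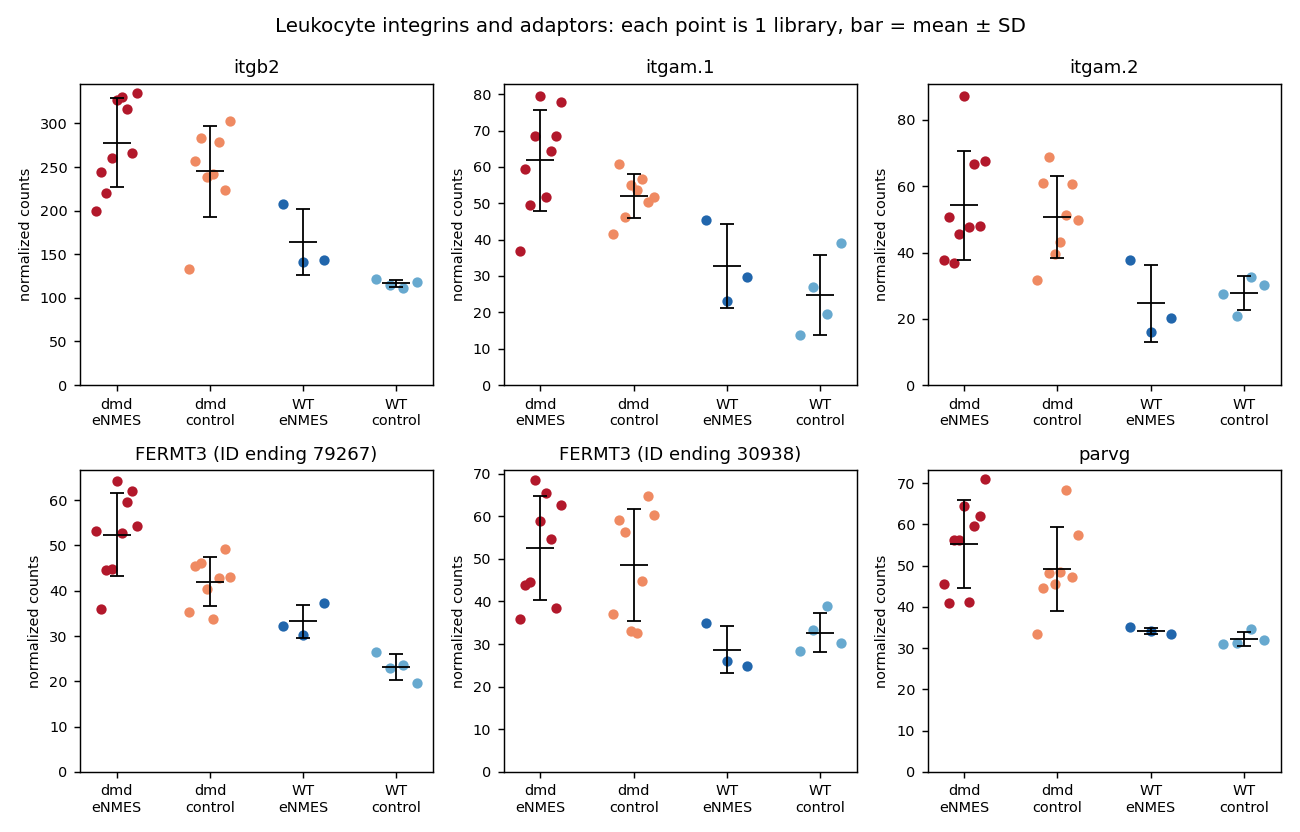
Normalized counts (y axis, from 0) of 6 leukocyte members in the 4 groups, 1 point for each library, with the mean and SD as bars. For *itgb2* the 8 *dmd* control libraries lie between 133 and 303 and the 4 WT control libraries between 111 and 121.5.

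Laminin chains of muscle and several basement membrane members were higher in *dmd* mutants by smaller steps, with little spread between libraries. An adjusted p under 0.1 was found for 3 of the 4 muscle chains and 7 of the 12 basement membrane members between the control groups, and for 3 and 6 between the eNMES groups. All of them were higher, against 6.56% and 6.74% of all genes higher at this threshold. Most of the folds of these members were under the threshold for a call. In each comparison 1 of the members was called, against 2.43% and 3% of all genes called higher. Basement membrane members summed to 195 ± 6.75 TPM (SD, n = 9) in *dmd* eNMES libraries and 208 ± 7.23 (n = 8) in *dmd* control libraries, against 167 ± 5.71 (n = 3) in WT eNMES libraries and 172 ± 6.79 (n = 4) in WT control libraries.

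*LAMB2* (ENSDARG00000002084), the laminin beta 2 chain, is found in mammals at the neuromuscular junction and the myotendinous junction. It had 1134 to 1422 normalized counts (median 1255) in *dmd* eNMES libraries and 1099.7 to 1380.1 (median 1286) in *dmd* control libraries. WT libraries had 791, 883 and 794 with eNMES and 913, 855, 864 and 894 without. All 17 *dmd* libraries were therefore above all 7 WT libraries. The log2 fold change was 0.53 between the control groups (SE 0.0608, edgeR adjusted p = 4.64e-06) and 0.62 between the eNMES groups (SE 0.0673, edgeR adjusted p = 1.86e-06). The call between the eNMES groups turned on the fold threshold: without WT eNMES replicate 3 or *dmd* eNMES replicate 10 the log2 fold change was just under 0.6, with adjusted p of 0.00015 and 2.43e-06, and it was 0.57 with the clock score as a covariate (edgeR adjusted p = 6.16e-05). A block on the replicate number gave 0.54 (edgeR adjusted p = 0.000565).

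The related chain *lamb2l* (ENSDARG00000033950), named here after its values were seen, did not differ in the same way. It had 1207 ± 74.2 normalized counts (SD, n = 9) in *dmd* eNMES libraries and 1253 ± 63.7 (n = 8) in *dmd* control libraries, against 1265 ± 35.6 (n = 3) in WT eNMES libraries and 1273 ± 48.4 (n = 4) in WT control libraries. Its log2 fold changes were -0.02 between the control groups and -0.07 between the eNMES groups (edgeR adjusted p = 0.846 and 0.517).

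*lama2* (ENSDARG00000099390) encodes the laminin alpha 2 chain, whose loss causes a congenital muscular dystrophy in humans and the candyfloss phenotype in zebrafish. It had 650.1 to 899 normalized counts (median 760.1) in *dmd* eNMES libraries, against 553, 563 and 645 in WT eNMES libraries, with no overlap. Untreated, it had 624 to 920.5 (median 742) in *dmd* mutants, against 613, 539, 733 and 499 in WT siblings, where WT control replicate 3 lay inside the range of the *dmd* mutants. The log2 fold change was 0.42 between the eNMES groups (SE 0.109, edgeR adjusted p = 0.0183) and 0.34 between the control groups (SE 0.0989, edgeR adjusted p = 0.0393). The third muscle chain that passed, *lama4*, was named after its values were seen. It had log2 fold changes of 0.23 and 0.28 in these comparisons (edgeR adjusted p = 0.0622 and 0.0164).

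*NID1* (ENSDARG00000068710), a nidogen, links laminin to the collagen IV network. It had 4026 to 4989 normalized counts (median 4539) in *dmd* control libraries, against 3055, 2764, 2926 and 3171 in WT control libraries. With eNMES it had 3703 to 4761 (median 4143) in *dmd* mutants, against 2831, 3496 and 2606 in WT siblings. The groups did not overlap in either comparison, and WT eNMES replicate 2 was the highest WT library. The log2 fold change was 0.60 between the control groups (SE 0.0745, edgeR adjusted p = 1.11e-05) and 0.49 between the eNMES groups (SE 0.0814, edgeR adjusted p = 0.000511). The call between the control groups lay at the fold threshold: the log2 fold change was under 0.6 without WT control replicate 2 or 3, *dmd* control replicate 1, 4, 6 or 7, WT eNMES replicate 1 or *dmd* eNMES replicate 5, and also by DESeq2, with its size factors in edgeR, with edgeR's own filter on low counts, with the 2 groups alone and with the *dmd* libraries of negative clock score alone. The replicate number as a block also took it under 0.6, to 0.57 (edgeR adjusted p = 0.000465). With a library left out it was 0.57 at the lowest, without WT control replicate 2, with an adjusted p of 0.000178. Without WT eNMES replicate 2 the log2 fold change between the eNMES groups was 0.62 and the gene was called there as well.

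*LAMB1* (ENSDARG00000101209), a laminin beta 1 chain of most basement membranes, had 1059.5 to 1332 normalized counts (median 1178) in *dmd* control libraries, against 855, 895, 969.9 and 907 in WT control libraries. With eNMES it had 1035 to 1179 (median 1136) in *dmd* mutants, against 807, 845 and 779 in WT siblings. All *dmd* libraries were above all WT libraries, at log2 fold changes of 0.38 between the control groups (SE 0.0566, edgeR adjusted p = 0.000165) and 0.47 between the eNMES groups (SE 0.0626, edgeR adjusted p = 3.87e-05). The second ID with this symbol, ENSDARG00000045524, had log2 fold changes of 0.13 and -0.01 (edgeR adjusted p = 0.169 and 0.925), so within the symbol only ENSDARG00000101209 passed these tests. Named after their values were seen, the gamma 1 chain *lamc1*, the nidogen *NID2* and perlecan *HSPG2* passed in both comparisons, with log2 fold changes of 0.17, 0.27 and 0.16 between the control groups and 0.29, 0.30 and 0.36 between the eNMES groups. So did the second *NID1* ID, ENSDARG00000103129, also named after its values were seen, at 0.27 and 0.29 (edgeR adjusted p = 0.038 and 0.0326). Genes that mark fibroblasts, a cell type that makes matrix, moved the same way: all 9 of that list had an adjusted p under 0.1 between the control groups and 7 between the eNMES groups, all higher in *dmd* mutants. Their summed level was 556 to 787 TPM in *dmd* eNMES libraries and 716 to 851 in *dmd* control libraries, against 457 to 492 in WT eNMES libraries and 466 to 564 in WT control libraries, and none of the 9 was at 0 in all libraries. The muscle list asked for 15 genes and matched 18 IDs, several of them with the symbol *TNNI2* and none for *mylpfa* or *mylz3*. At an adjusted p under 0.1, 8 of these 18 were higher and 1 lower between the control groups, and 10 higher and 1 lower between the eNMES groups. Of 5 endothelial markers 1 and 0 were higher at this threshold, and 0 were lower in either comparison. Of all genes, 10.9% and 12.3% passed it in either direction. The part of these cell types in the values of the laminins and nidogens was not tested.

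**Figure D3:**
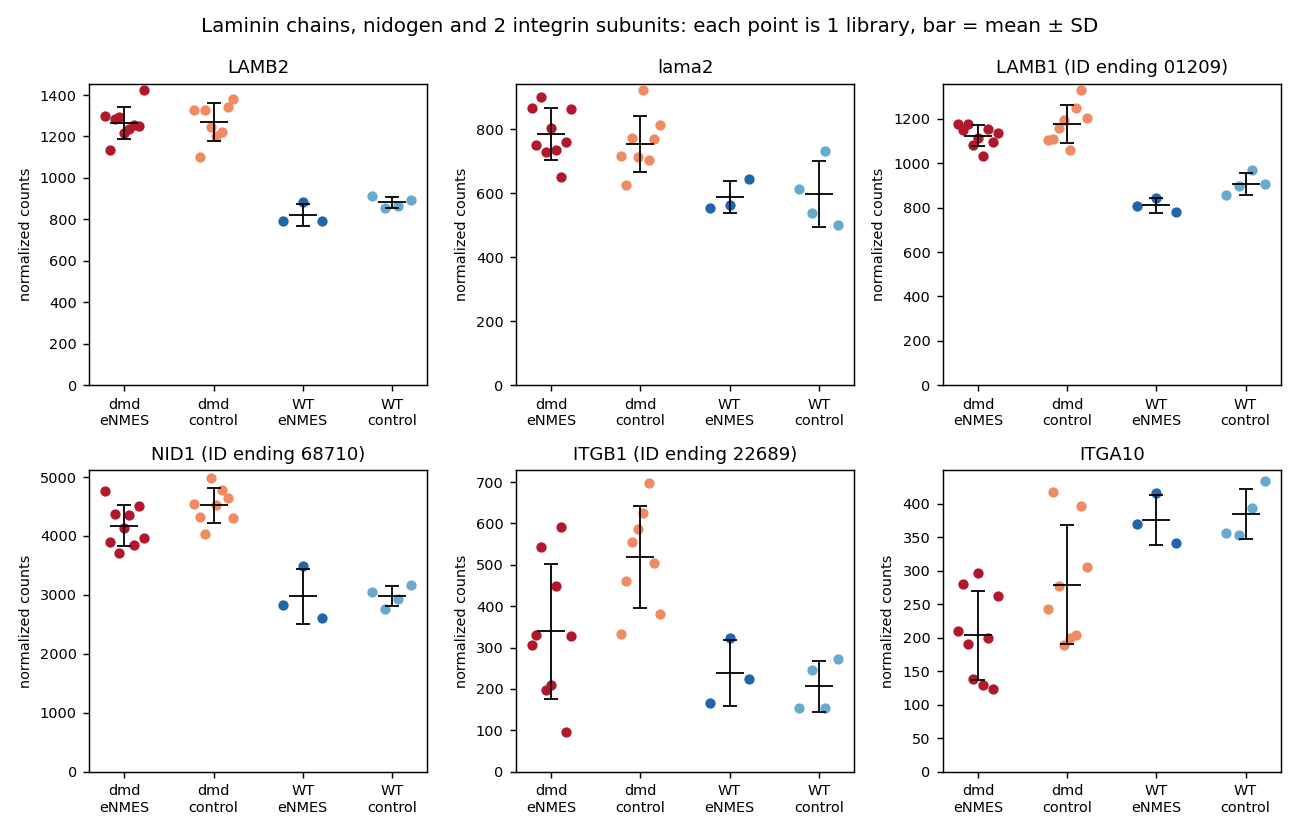
Normalized counts (y axis, from 0) of 3 laminin chains, a nidogen and the integrin subunits *ITGB1* (ENSDARG00000022689) and *ITGA10* in the 4 groups, 1 point for each library, with the mean and SD as bars. For *LAMB2* the 17 *dmd* libraries lie between 1099.7 and 1422 and the 7 WT libraries between 791 and 913.

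The other 17 integrins are those not assigned to skin or blood. Between the control groups 1 was called and passed at an adjusted p under 0.1, against 3.12% and 10.9% of all genes. Between the eNMES groups 4 were higher and 1 was lower at an adjusted p under 0.1, against 6.74% and 5.57% of all genes. An unadjusted p under 0.05 was found for 29.4% of the 17 in each comparison, against 21.8% and 22.9% of all genes. The median log2 fold change of the 17 was 0.10 between the control groups and 0.09 between the eNMES groups.

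The beta 1 subunit is shared by most laminin and collagen receptors, and 4 IDs in the files carry the symbol *ITGB1*. One of them, ENSDARG00000022689, had 334 to 698 normalized counts (median 529) in *dmd* control libraries, against 153, 247, 154 and 272 in WT control libraries. The groups did not overlap and the log2 fold change was 1.32 (SE 0.360, edgeR adjusted p = 0.0335, and 0.115 without WT control replicate 1 or replicate 3 and 0.201 with the *dmd* libraries of positive clock score alone). With eNMES it had 95.1 to 591 normalized counts (median 328) in *dmd* mutants, against 166, 323 and 225 in WT siblings. The *dmd* eNMES libraries spanned the whole WT range, and the log2 fold change was 0.49 (SE 0.385, edgeR adjusted p = 0.484). Between *dmd* eNMES and *dmd* control libraries it was -0.63 (SE 0.268, edgeR adjusted p = 0.408; exact permutation test, p = 0.024).

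Expected counts can divide a read among several genes, and those for this ID were over 0.05 away from a whole number in 91.7% of libraries. By the same measure the share was 91.7% for *HSPG2* and 87.5% for *NID1* (ENSDARG00000068710) and for *ITGB4*. It was 79.2% for *TLN1*, 75% for *lamc1*, 66.7% for *PXN* (ENSDARG00000088590) and 54.2% for *itga6b*. The values of these genes can therefore hold shared reads as well. For the *ITGB1* ID ENSDARG00000104484 the share was 0%. The measure counts libraries and does not give how many reads were shared. The sum of the 4 *ITGB1* IDs, taken after their values were seen and not tested, was 85.3 ± 4.49 TPM (SD, n = 9) in *dmd* eNMES libraries and 93.9 ± 2.71 (n = 8) in *dmd* control libraries, against 78.7 ± 1.78 (n = 3) in WT eNMES libraries and 79.6 ± 2.94 (n = 4) in WT control libraries. ENSDARG00000022689 made up 12.7 ± 5.72% of this sum in *dmd* eNMES libraries and 17.9 ± 3.97% in *dmd* control libraries, against 10.3 ± 2.85% in WT eNMES libraries and 8.70 ± 2.80% in WT control libraries. The other 3 IDs made up most of the *ITGB1* level in every group.

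A second *ITGB1* ID, ENSDARG00000104484, behaved differently. It had 364 to 481 normalized counts (median 435) in *dmd* eNMES libraries, against 301, 331 and 350.4 in WT eNMES libraries, with no overlap (log2 fold change 0.40, SE 0.0858, edgeR adjusted p = 0.00451). Untreated, this ID had 395 to 494 (median 418) in *dmd* mutants, against 474, 414, 399 and 359 in WT siblings, and the log2 fold change was 0.06 (edgeR adjusted p = 0.701). *ITGAV* (ENSDARG00000006314) showed a similar order of values, with 2305 to 3105 normalized counts (median 2715) in *dmd* eNMES libraries, against 2307, 2136 and 2291 in WT eNMES libraries (log2 fold change 0.28, SE 0.0695, edgeR adjusted p = 0.0138). Its log2 fold change between the control groups was 0.11 (edgeR adjusted p = 0.327).

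*ITGA10* (ENSDARG00000002507), the alpha subunit of a collagen receptor best known from cartilage, was the only member called lower in *dmd* mutants. It had 123 to 297 normalized counts (median 200.0) in *dmd* eNMES libraries, against 369, 416 and 342 in WT eNMES libraries. All 9 *dmd* eNMES libraries lay below the WT eNMES libraries, at a log2 fold change of -0.88 (SE 0.248, edgeR adjusted p = 0.0323, and 0.1003 without WT eNMES replicate 1, 0.141 without replicate 2 and 0.202 with the clock score as a covariate). Untreated, it had 189 to 417 normalized counts (median 259.5) in *dmd* mutants, against 356, 354, 393 and 434 in WT siblings, with overlap and a log2 fold change of -0.46 (SE 0.231, edgeR adjusted p = 0.248). *itga2.3* (ENSDARG00000086838), named for the alpha 2 subunit of a collagen receptor, had 9.52 to 50.4 normalized counts (median 37.0) in *dmd* eNMES libraries, against 10.4, 13.1 and 11.5 in WT eNMES libraries. Of the 9 *dmd* libraries 8 lay above the WT libraries, and the log2 fold change was 1.54 (SE 0.451, edgeR adjusted p = 0.0361), a call that was lost without any 1 of the 3 WT eNMES libraries (edgeR adjusted p = 0.107 to 0.142).

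The adaptors that join integrins to actin differed by small folds. Of 12 adaptors, 5 had an adjusted p under 0.1 between the control groups, all higher in *dmd* mutants, against 6.56% of all genes higher. Between the eNMES groups 2 were higher and 1 was lower, against 6.74% and 5.57% of all genes. None of these reached the fold for a call. Talin 1, *TLN1* (ENSDARG00000100729), was the adaptor that passed in both comparisons. It had 2373 ± 77.4 normalized counts (SD, n = 9) in *dmd* eNMES libraries, against 2029 ± 60.9 (n = 3) in WT eNMES libraries, a log2 fold change of 0.23 (SE 0.0485, edgeR adjusted p = 0.00496). Untreated, it had 2297 ± 105 (n = 8) in *dmd* mutants, against 2044 ± 67.2 (n = 4) in WT siblings, a log2 fold change of 0.17 (edgeR adjusted p = 0.0230). *TLN1* was named after its values were seen.

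*PXN* (ENSDARG00000088590) was the adaptor that was lower. It had 946 to 1164.5 normalized counts (median 1096) in *dmd* eNMES libraries, against 1212, 1321 and 1283 in WT eNMES libraries, with no overlap and a log2 fold change of -0.25 (SE 0.064, edgeR adjusted p = 0.0163). Its log2 fold change between the control groups was -0.08 (SE 0.0593, edgeR adjusted p = 0.445). The sum of the 12 adaptors was 184 ± 8.66 TPM (SD, n = 9) in *dmd* eNMES libraries and 188 ± 5.38 (n = 8) in *dmd* control libraries, against 183 ± 4.22 (n = 3) in WT eNMES libraries and 175 ± 2.298 (n = 4) in WT control libraries.

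Other proteins of focal adhesions and hemidesmosomes, which the symbol rule does not name, were taken as a list of 54 genes. It holds focal adhesion kinases, filamins, tensins, actinins and plectins, among others. Between the control groups 1 was called, against 3.12% of all genes. At an adjusted p under 0.1, 9 were higher and 1 lower in *dmd* mutants, against 10.9% of all genes in either direction. Between the eNMES groups 1 was called, against 3.94% of all genes. There 8 were higher and 2 lower at an adjusted p under 0.1, against 6.74% and 5.57% of all genes. The called gene was the same in both, *FLNC* (ENSDARG00000018566), filamin C, which crosslinks actin at the muscle Z disc and binds integrin and the sarcoglycans. It had a mean of 1525 normalized counts in *dmd* eNMES libraries, against 621 in WT eNMES libraries, and of 1387 in *dmd* control libraries, against 557 in WT control libraries. Groups did not overlap in either comparison, and the log2 fold changes were 1.29 (SE 0.188, edgeR adjusted p = 0.00021) between the eNMES groups and 1.32 (SE 0.170, edgeR adjusted p = 4.69e-05) between the control groups. The second ID with this symbol, ENSDARG00000018820, was not called in either comparison.

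Epidermal members lay on both sides of 0 between the genotypes. Their median log2 fold change was -0.01 between the control groups and 0.08 between the eNMES groups, and 3 of 11 were higher in both. Between the control groups 3 passed at an adjusted p under 0.1, all higher, against 6.56% of all genes higher. Among them was the laminin receptor subunit *ITGA3* (ENSDARG00000012824), with a log2 fold change of 0.22 (SE 0.0636, edgeR adjusted p = 0.0363). Between the eNMES groups 0 passed (2 of 11 had an unadjusted p under 0.05, which is 18.2%, against 22.9% of all genes).

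Stimulation itself was compared within each genotype. In *dmd* mutants, 0 of the 71 members were called after eNMES, by edgeR or by DESeq2, against 0.128% of all genes tested, and 0 had an adjusted p under 0.1, against 0.414% of all genes. An unadjusted p under 0.05 was found for 10 members (14.1%, against 10.3% of all genes). The smallest were those of *ITGA3*, the laminin gamma 3 chain *lamc3* and the laminin alpha 1 chain *LAMA1*, all with lower means after eNMES. *ITGA3* had 397.5 to 513 normalized counts (median 445) in *dmd* eNMES libraries, against 479.96 to 532 (median 514) in *dmd* control libraries, and its log2 fold change was -0.17 (SE 0.0502, edgeR adjusted p = 0.192; exact permutation test, p = 0.00391). *lamc3* had 643 to 827 (median 723) in *dmd* eNMES libraries, against 716 to 863 (median 834) in *dmd* control libraries, at -0.17 (SE 0.0548, edgeR adjusted p = 0.225). *LAMA1* had 157 to 223 (median 179) in *dmd* eNMES libraries, against 188 to 256 (median 205) in *dmd* control libraries, at -0.23 (SE 0.083, edgeR adjusted p = 0.286). In all 3 the groups overlapped.

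By group of members, log2 fold changes of *dmd* eNMES over *dmd* control were negative for 11 of the 12 basement membrane members, with a median of -0.10, and positive for 11 of the 13 leukocyte and thrombocyte members, with a median of 0.17. Epidermal members were negative in 8 of 11, with a median of -0.11, so negative values were not particular to the basement membrane members. The median of all 71 members was -0.02 and of all genes tested 0.00. Fibroblast markers had negative values for 9 of 9 genes (median -0.17) and leukocyte markers positive values for 16 of 19 (median 0.18), with 0 of either list at an adjusted p under 0.1. Epidermal markers had negative values for 7 of 11 (median -0.17), also with 0 at an adjusted p under 0.1. The part of these cell types in the values was not tested. In WT siblings the basement membrane members were negative in 11 of 12 (median -0.12) and the epidermal members in 6 of 11 (median -0.01). The leukocyte and thrombocyte members were positive there in 5 of 13 (median -0.04).

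**Figure D4:**
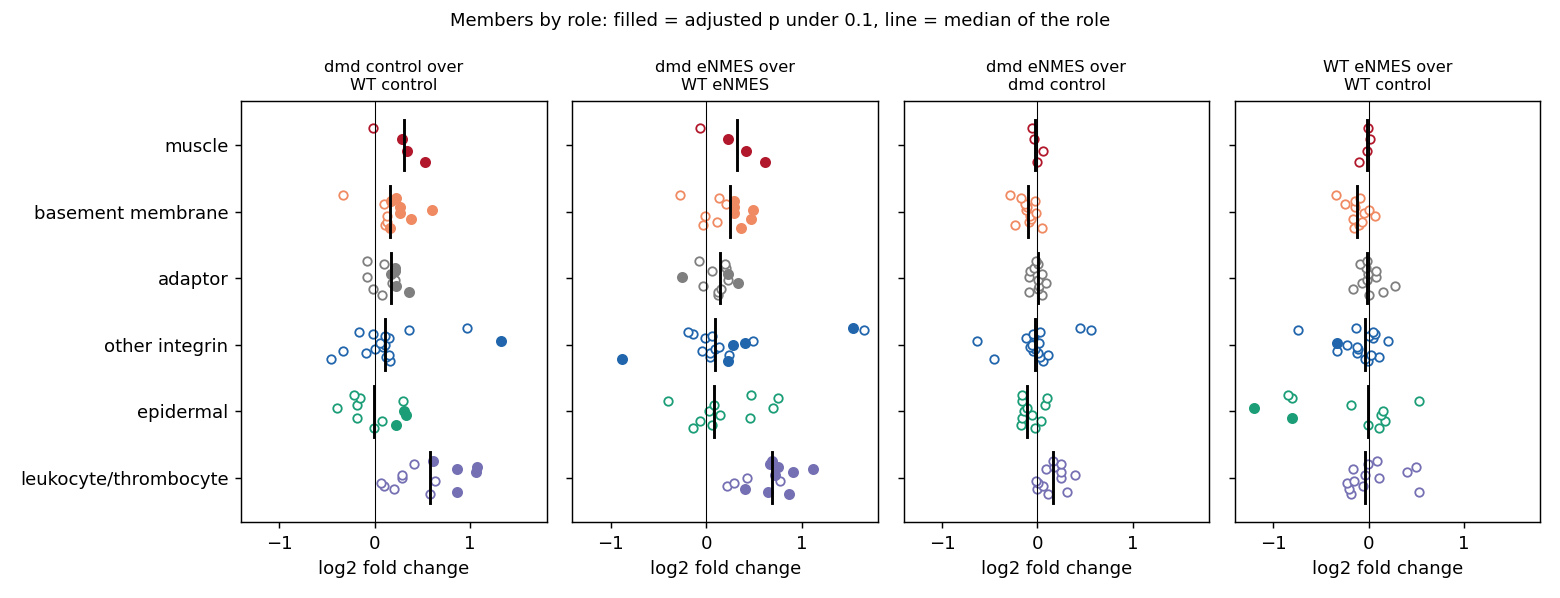
Log2 fold change (x axis) of the members in 6 groups of members (rows) in the 4 comparisons of 2 groups (panels). *ITGB1BP1* and *itgb3bp* are not drawn. Filled points had an adjusted p under 0.1 and the vertical lines are medians. Filled points stand mostly to the right in the 2 genotype panels, and the panel of *dmd* eNMES over *dmd* control holds 0 filled points.

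In WT siblings, 2 of the 71 members were called after eNMES, both lower (2.82%, against 2.95% of all genes tested, or 1.9% counting lower genes alone), and 3, all lower, had an adjusted p under 0.1 (4.23%, against 6.48% of all genes, or 3.36% counting lower genes alone). The members were therefore called at about the rate of all genes. Groups did not overlap for 7 members that were higher and 8 that were lower, against 10.1% and 10.2% of all genes. The called members were *itga6b* and *ITGB4*, the alpha 6 and beta 4 subunits that form the integrin of the hemidesmosome, which fixes basal skin cells to the basement membrane.

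*itga6b* (ENSDARG00000069946) had 663, 698 and 653 normalized counts in WT eNMES libraries, against 1765, 1666, 1488 and 1243 in WT control libraries. The highest eNMES library had far fewer counts than the lowest control library, and the log2 fold change was -1.20 (SE 0.313, edgeR adjusted p = 0.0394; exact permutation test, p = 0.0286, the least that 3 against 4 libraries can give). *ITGB4* (ENSDARG00000028507) had 1415, 1262 and 1392 normalized counts in WT eNMES libraries, against 2541.5, 2747, 2109.5 and 2071 in WT control libraries, at a log2 fold change of -0.80 (SE 0.204, edgeR adjusted p = 0.0327). Both calls were lost without any 1 of the 3 WT eNMES libraries (edgeR adjusted p = 0.108 to 0.142), and that of *itga6b* also without WT control replicate 1 (0.104), while the log2 fold changes stayed between -1.23 and -1.13 for *itga6b* and between -0.85 and -0.75 for *ITGB4*. With the clock score as a covariate they were -0.32 for *itga6b* and -0.34 for *ITGB4* (edgeR adjusted p = 0.785 and 0.672). The third member that passed, *ITGB1* (ENSDARG00000104484), had a log2 fold change of -0.33 (SE 0.0966, edgeR adjusted p = 0.0585). Of 11 epidermal marker genes 2 were lower at an adjusted p under 0.1, against 3.36% of all genes lower. The summed level of the list was 4322 to 5197 TPM in WT eNMES libraries, against 5367 to 6399.6 in WT control libraries. None of the 11 was at 0 in all libraries, and their part in the values of *itga6b* and *ITGB4* was not tested.

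In *dmd* mutants, *itga6b* had 712 to 1822 normalized counts (median 1088) with eNMES, against 790.2 to 1905 (median 1036) without, and *ITGB4* had 1361 to 2401 (median 1934) with eNMES, against 1554 to 2935 (median 1927) without. The eNMES and control libraries covered much the same range for both genes, at log2 fold changes of -0.11 (SE 0.193) and -0.16 (SE 0.127). The difference between the eNMES changes in *dmd* mutants and in WT siblings was tested directly. It was 1.09 for *itga6b* (SE 0.364, edgeR adjusted p = 0.149) and 0.64 for *ITGB4* (SE 0.239, edgeR adjusted p = 0.196), and the smallest p among the members was that of *ITGB1* (ENSDARG00000104484), at 0.35 (SE 0.114, edgeR adjusted p = 0.134). Of the 71 members 0 were called in this test by edgeR, against 1.85% of all genes, and 2 by DESeq2. By edgeR 0 members had an adjusted p under 0.1, against 2.81% of all genes, and 7 had an unadjusted p under 0.05 (9.86%, against 14.5% of all genes). *itga6b* passed without *dmd* control replicate 6 (edgeR adjusted p = 0.0992), and *itga6b* and *ITGB4* both passed without *dmd* control replicate 8 (edgeR adjusted p = 0.0746 and 0.0939). Both also passed with the *dmd* libraries of negative clock score alone (edgeR adjusted p = 0.00417 and 0.0463) and by DESeq2 (DESeq2 adjusted p = 0.0298 and 0.0866). *itga6b* passed as well with the *dmd* libraries of positive clock score alone, at 1.01 (edgeR adjusted p = 0.0665). With the replicate number as a block *itga6b* passed at 1.01 (edgeR adjusted p = 0.0392). With the clock score as a covariate the difference was 0.12 for *itga6b* and 0.14 for *ITGB4* (edgeR adjusted p = 0.968 and 0.952).

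The hemidesmosome subunits also varied widely within the *dmd* groups, and that variation ran with the sign of the clock score. In these groups the sign followed the replicate number. It was negative in eNMES replicates 2 to 6 and control replicates 1 to 5. It was positive in eNMES replicates 7 to 10 and control replicates 6 to 8. The state of the clock genes and any other difference between these 2 sets of libraries cannot be told apart. All 3 WT eNMES libraries had a negative clock score, from -3.58 to -2.72, and all 4 WT control libraries a positive score, from 2.04 to 2.72, so in WT siblings the treatment and the state of the clock genes cannot be told apart. The 7 *dmd* libraries with a positive score had 1088 to 1905 normalized counts of *itga6b* (median 1333), and the 10 with a negative score had 712 to 1140.3 (median 850.2). For *ITGB4* the values were 1856 to 2935 (median 2139) in libraries with a positive score and 1361 to 2019 (median 1794) in those with a negative score. The sets differed in median for both subunits and overlapped at their edges.

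The laminin alpha 3 chain *lama3* (ENSDARG00000071462), a ligand of this integrin that was named after its values were seen, ran the other way. It had 341 to 495 normalized counts (median 395) in the *dmd* libraries with a positive score and 546 to 792 (median 638) in those with a negative score, with no overlap. In WT siblings it had 648, 694 and 731 with eNMES, against 422, 496, 455 and 541 without. Its log2 fold change there was 0.53 (edgeR adjusted p = 0.209), and the direction of its values was opposite to that of *itga6b* and *ITGB4*. These sets of libraries were formed from the clock genes of the same libraries and are given as a description.

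**Figure D5:**
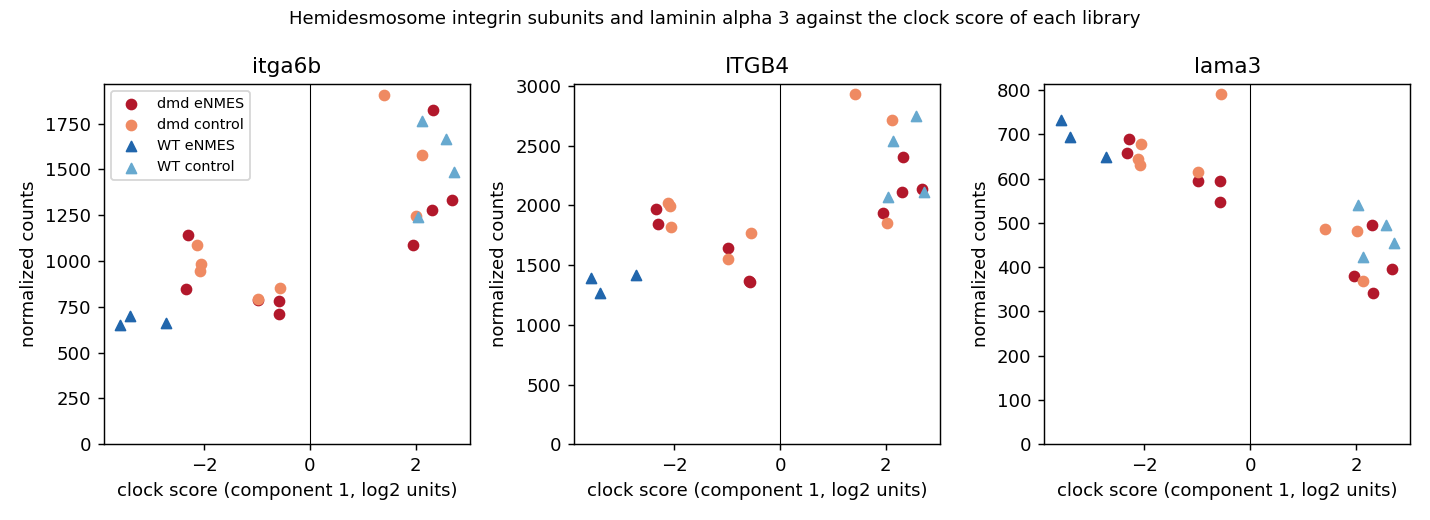
Normalized counts (y axis, from 0) of *itga6b*, *ITGB4* and *lama3* against the clock score of each library (x axis, log2 units), with circles for *dmd* and triangles for WT libraries. The WT eNMES and WT control libraries stand at opposite ends of the score, and *lama3* is at 341 to 495 in the *dmd* libraries with a positive score and at 546 to 792 in the others.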

How the data were processed

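PolyA RNA of whole larvae was sequenced from a stranded kit. Per the processing notes of the submitters, FastQC 0.11.8, Trimmomatic 0.38.0, RSEM 1.2.31, Bowtie 1.1.2, DESeq2 1.22.2 and the build GRCz11 were used. The authors deposited an expected count (an RSEM estimate that shares a read among the genes it maps to) and a TPM for each gene and library. A FPKM column was not used. Labels name 25 libraries, and 24 were analysed. *dmd* eNMES replicate 1 was not analysed here.

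Expected counts were rounded to whole numbers. Of 32520 genes, 25832 with at least 10 counts summed over libraries were tested in R 4.3.3 by edgeR 4.0.16 (with limma 3.58.1), using its quasi-likelihood test with robust estimation after TMM normalization. The 4 groups shared 1 fit. P-values were adjusted by Benjamini-Hochberg over all genes tested. At a biological coefficient of variation of 0.154, precision for genes with many counts came from variation among libraries rather than from depth. Single genes were also compared by an exact permutation test, two-sided, of log2(normalized count + 1). P-values measure the spread between libraries of 2 larvae. The procedures were tested on simulated data. Of genes with a simulated log2 change of 0.7, 65% to 78% were called, and of those with 1.4, 100%. False calls numbered 6 to 16 in a comparison. Genes with low mean counts were not among those changed, and all genes were given the same spread, so the test does not cover such members.

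Groups came from the labels. Replicate numbers were checked for pairing by the correlation of deviations from the group means. Between the *dmd* groups these correlations ran from -0.14 to 0.24, with 4 of 7 over 0.1. Libraries of unlike number were not compared, so the check cannot settle whether the numbers pair the samples. In the *dmd* groups the sign of the clock score followed the number. The main fit used no pairing. Symbols came from a reference table that named 29201 of the 32520 IDs. It holds several IDs for 9 of the member symbols (20 IDs), which are given with their IDs, and the split of reads between such copies is uncertain. The symbols *itga7* and *itgb1b.2* are not used in that table, so no value is given under these names. Which of the 4 IDs named *ITGB1*, if any, is *itgb1b.2* could not be told. Positions and sequences are not given, since no genome was used here.

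Members named are those called in any of 5 comparisons, the 3 with the smallest p in each, the highest in TPM in each group of members, and the called genes of the list of 54 focal adhesion and hemidesmosome genes. Others are said to be named after their values were seen. Members, groups of members and lists (focal adhesion partners, markers of muscle, epidermis, leukocytes, fibroblasts, endothelium and thrombocytes, clock genes) were chosen with earlier results of these data known. Alternatives were DESeq2 1.42.0, its size factors in edgeR, other filters and thresholds, the 2 groups alone, the replicate number as a block, *dmd* libraries of 1 clock score sign, that sign as a term, and each library left out. The clock score as a covariate was added after the data were seen.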

Additional observations from a re-analysis of the deposited data

Results flagged for a closer look

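Of 75 tests for a single library far from the rest of its group (25 members in 3 groups), 1 passed, where chance gives about 5%. It was *itgb2* in *dmd* control replicate 1, at 132.87 normalized counts, with the next library of the group at 223.8 and the highest at 303. This library also was the lowest *dmd* control library in *itgam.1*, *itgam.2* and *parvg*. Without it, *itgb2* was still called between the control groups.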

How the results depend on the processing

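Alternatives were run for 31 fold changes of named members, those that were called or had the smallest p in a comparison, and 0 of these reversed in direction. Other fold changes in the text have no alternative. Among the values of these 31, 929 stayed on their side of the threshold, 78 lost the call and 10 gained it. The number of members called between *dmd* control and WT control libraries was 7, was 5 to 8 under the other alternatives and was 24 with no minimum fold change. Leaving out 1 library in turn gave 5 to 8. Between *dmd* eNMES and WT eNMES libraries it was 11, against 26 with no minimum fold change and 2 with the clock score as a covariate. Leaving out 1 library in turn gave 2 to 12. In *dmd* mutants the number called with eNMES was 0 in every alternative run, and leaving out 1 library in turn gave 0 to 0. In WT siblings it was 2, against 0 with the clock score as a covariate, and leaving out 1 library gave 0 to 3, with 0 without any of the 3 WT eNMES libraries and 1 without WT control replicate 1. The log2 fold change with the clock score as a covariate was -0.32 for *itga6b* (adjusted p = 0.785) and -0.34 for *ITGB4* (adjusted p = 0.672). For the difference of the eNMES changes, 0 members were called, against 2 with DESeq2, 3 with the *dmd* libraries of negative clock score alone and 2 with those of positive score alone. Leaving out 1 library gave 0 to 2. With the clock score as a covariate 0 were called, at differences of 0.12 for *itga6b* and 0.14 for *ITGB4*. The causes were not tested. The larger counts with no minimum fold change follow from its construction.

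Samples of the same replicate number deviated together only weakly (correlations from -0.14 to 0.24), and the labels do not tie the numbers to a shared batch. With the replicate block the number called was 6 between the eNMES groups, 7 between the control groups, 3 in WT siblings, 0 in *dmd* mutants and 2 for the difference of the changes. Between the eNMES groups *itgam.1*, *parvg*, *itgae.2*, both *FERMT3* IDs and *LAMB2* lost their calls with the block. Between the control groups *parvg* had a log2 fold change of 0.40 with the block (edgeR adjusted p = 0.236) and was not called.

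The 3 WT eNMES libraries limit every comparison they enter. Depth limits members with few counts, such as *itga2.3*.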
